A study of Homo sapiens with 6 samples.

Results

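Keratins of simple epithelia and type II hair keratins were followed across arrays of 22RV1 prostate cancer cells that carried miR-338-5p or miR-421. The genes were KRT8 and KRT18, the other simple-type keratins KRT7, KRT19, KRT20, KRT23 and KRT80, and the hair keratins KRT81, KRT83 and KRT86. Every probe that the array files name after one of these genes was taken, which gave 15 probes for 10 genes, of 58201 gene probes and 43317 gene names in all. The genes were picked with results of these arrays known, among them the difference between the miRNA lines at KRT8, KRT18 and the probe named KRT83. Those values are therefore given as a description, without a p-value. Calls against control at the same genes, and how often they passed under other processing, reuse these arrays and are not independent support.

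Keratins are the intermediate filament proteins of epithelial cells. A filament is built from pairs of a type I and a type II chain, and in simple epithelia such as the luminal layer of the prostate the usual pair is KRT18 (type I) with KRT8 (type II). KRT7 (type II) and KRT19 (type I) add to this pair in ducts and many carcinomas, KRT20 marks intestinal and urothelial surface cells, and KRT81, KRT83 and KRT86 are type II chains of the hair shaft.

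22RV1 is an established human prostate cancer line, here described as SPINK1 positive. Stable cells were made with a lentiviral vector, pLemiR-338-5p, pLemiR-421 or the control pLemiR-RFP, and grown in puromycin. On each of 6 two-colour arrays the control RNA was in Cy3 and the RNA of a miRNA line in Cy5, with miR-338-5p on 3 arrays (replicates 1, 2 and 3) and miR-421 on the other 3 (a pool and replicates 1 and 2). The titles number all arrays but the pool after a letter C (C-1, C-2 and C-3). These are called replicates here, and what the C stands for is not given. Whether a line is 1 clone, what the pool holds and whether the control RNA came from 1 culture are not given in the sources used here. An SD over 3 arrays may therefore be technical or may hold differences between cultures or clones. No dyes were swapped, so a dye bias of a probe cannot be told apart from a change against control. Between 44.3% and 47.9% of gene spots were well above background in Cy3, and between 41.9% and 48.3% in Cy5. Of the luminal prostate markers, 9 of 9 were well above background in the control channel of every array. Of 7 basal markers 3 were so too (KRT15, DST and ITGA6), while KRT5 and TP63 were so on 0 arrays in either dye. SPINK1, the secreted trypsin inhibitor by which the labels describe these cells, had mean log2 ratios of -3.97 ± 2.47 (miR-338-5p) and -6.61 ± 0.44 (miR-421; SD, n = 3 each). The miR-338-5p arrays read -3.04, -2.10 and -6.78, and the lines overlapped.

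The mature miRNAs are shown because they define the lines. Capitals mark the seed, bases 2 to 8, and the sequences are RefSeq's on GRCh38.p14.
hsa-miR-338-5p: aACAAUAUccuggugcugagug
hsa-miR-421: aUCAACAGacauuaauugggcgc
The first lies at chr17:81125923-81125944 and the second at chrX:74218392-74218414, both on the minus strand. Their seeds differ.

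Because probes of 1 keratin did not all behave alike, 60-base probes on which the results turn are given as the array design prints them. Each is named by its gene and by where it starts in its target transcript.
KRT8 at 644: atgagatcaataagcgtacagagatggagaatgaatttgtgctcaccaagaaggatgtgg
KRT8 at 350: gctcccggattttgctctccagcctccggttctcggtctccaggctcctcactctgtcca
KRT18 at 999: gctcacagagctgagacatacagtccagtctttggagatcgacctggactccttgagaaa
KRT18 at 1276: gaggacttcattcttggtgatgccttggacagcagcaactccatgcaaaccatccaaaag
KRT83 at 884: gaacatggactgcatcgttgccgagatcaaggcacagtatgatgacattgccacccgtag
In hg19, the build of the array files, the KRT8 probe at 644 spans chr12:53294461-53294995 (minus strand) and the KRT18 probe at 1276 spans chr12:53346116-53346554 (plus strand). Both spans are longer than 60 bases, so these probes cross a splice junction. The KRT18 probe at 999 is at chr12:53345577-53345636 (plus strand), and the KRT83 probe at 884 is at chr12:52710677-52710736 (minus strand). A further KRT8 probe, at 1681 of the transcript, lies at chr12:53291026-53291085 (minus strand).

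Of the 15 probes, 10 passed the filter on dim probes (a signal well above background, Cy3 or Cy5, on 3 or more arrays) and were tested, and these covered 7 of the 10 genes. In the limma fit over all probes (Benjamini-Hochberg adjusted p below 0.05), 3 of the 10 were lower than control with miR-338-5p and 0 were higher. Over all tested probes, 9% passed for miR-338-5p, 5.22% as lower and 3.79% as higher. With miR-421, 4 of the 10 were higher (KRT8 at 350, both KRT18 probes and KRT81) and 0 lower, where 21.6% of all probes passed, 9.19% as higher and 12.5% as lower. The arrays of the lines did not overlap at 5 of the 10 probes (19.8% of all probes), and 3 of the 10 had one sign on every miR-338-5p array and the opposite sign on every miR-421 array (3.53% of all probes). As the genes were picked with these contrasts known, the shares serve only as scale. The count for miR-421 changed with single arrays: it was 2 without the pool, 2 without replicate 1 and 0 without replicate 2. Calls over all probes fell in the same fits, from 5950 to 3409, 2973 and 629, so the loss was not particular to the keratins. The count for miR-338-5p was 3 whichever array was left out. At an unadjusted limma p below 0.05, 4 of the 10 were lower and 1 higher with miR-338-5p, and 5 were higher and 1 lower with miR-421. Without miR-421 replicate 2, 4 were still higher with miR-421 at that unadjusted level. The share of all probes at that level is not given here, so these counts and the later unadjusted ones have no scale.

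**Figure D1:**
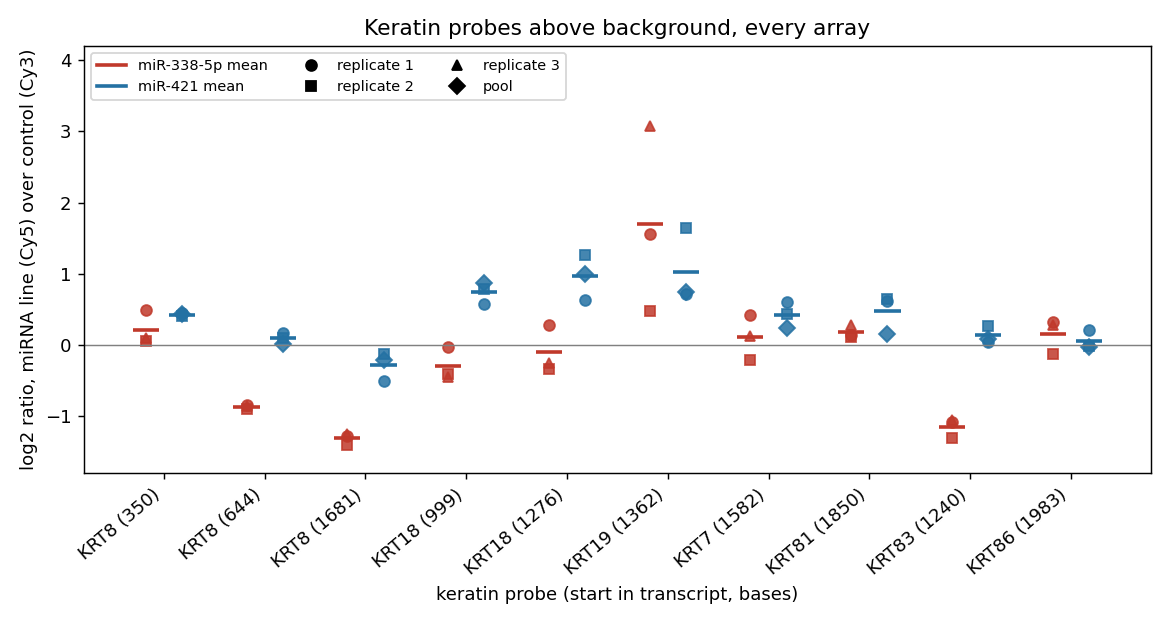
Log2 ratio of the miRNA line over control for the 10 tested keratin probes (horizontal axis, gene and start in the transcript), with 1 point per array and a bar at the mean of 3 arrays per line. KRT8 at 644 and 1681 and KRT83 at 1240 lie below 0 on all miR-338-5p arrays, KRT18 lies above 0 on all miR-421 arrays, and KRT19 is above 0 on all 6.

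KRT8, the type II chain of the simple pair, was lower with miR-338-5p. The probe at 1681, the brightest of the 3 KRT8 probes, gave log2 ratios of -1.28, -1.40 and -1.25 on miR-338-5p replicates 1, 2 and 3, and of -0.21 (pool), -0.51 and -0.13 (replicates 1 and 2) with miR-421. All 6 values lay below 0, and every miR-338-5p array was below every miR-421 array. The means were -1.31 ± 0.08 (SD, n = 3) and -0.28 ± 0.20 (SD, n = 3), which put KRT8 at 40.3% and 82.4% of control. Only the miR-338-5p mean passed the threshold against control, and it did so under 15 of 15 alternatives run on this probe. In both settings with 1 value per gene, which take in the probe at 350, KRT8 passed at a smaller size, -0.68 in the authors' deposited table and -0.65 as the mean of its probes.

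The junction-crossing KRT8 probe at 644 gave -0.84, -0.90 and -0.86 with miR-338-5p and 0.02 (pool), 0.17 and 0.10 with miR-421. The lines again did not overlap, and here their signs were opposite. Its means were -0.87 ± 0.03 and 0.10 ± 0.08 (SD, n = 3 each), or 54.8% and 107% of control. The difference between the lines, -0.96, was close to the -1.03 of the probe at 1681. At both probes the control channel hardly moved between the array sets: normalized log2 Cy3 signals differed by 0.08 at 1681 and by 0.04 at 644, and Cy5 signals by -0.96 and -0.93.

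The KRT8 probe at 350 did not share this pattern. It is designed on a non-coding KRT8 variant and lies at chr12:53343241-53343300 (minus strand), 48.2 kb from the KRT8 probe at 644 and 2.28 kb from the KRT18 probe at 999. In the RefSeq gene table the spans of KRT8 and KRT18 overlap, and the array places this probe on the strand opposite to KRT18. It read 0.49, 0.05 and 0.10 with miR-338-5p and 0.43 (pool), 0.45 and 0.40 with miR-421. The values of the lines overlapped, none was below 0, and the mean with miR-421, 0.43 ± 0.03 (SD, n = 3), passed as higher than control (limma adjusted p = 0.027). A single KRT8 value averaged over its 3 probes therefore mixes probes that moved differently.

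KRT18, the type I partner, was higher with miR-421. Its brightest probe, at 1276, gave 1.00 (pool), 0.63 and 1.27 (replicates 1 and 2) with miR-421, and 0.28, -0.34 and -0.25 with miR-338-5p. The lines did not overlap. The means were 0.97 ± 0.32 and -0.10 ± 0.34 (SD, n = 3 each), or 196% and 93.2% of control, and only the miR-421 mean passed the threshold. It did not pass without the pool (mean 0.95) or without miR-421 replicate 2 (mean 0.82). The probe at 999 gave 0.87 (pool), 0.58 and 0.79 with miR-421 and -0.03, -0.41 and -0.45 with miR-338-5p. Here every miR-421 array was above 0 and every miR-338-5p array below it. Its means were 0.75 ± 0.15 and -0.30 ± 0.23 (SD, n = 3 each), or 168% and 81.5% of control.

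The control channel differed between the array sets at one of the KRT18 probes. At 1276 the normalized log2 Cy3 signal averaged 14.32 on the miR-338-5p arrays and 13.78 on the miR-421 arrays, a difference of 0.54, and the Cy5 signals differed by -0.53. The line difference of -1.07 at this probe was thus made up about equally of either dye. At 999 the Cy3 signals differed by 0.10 and the Cy5 signals by -0.94, with a line difference of -1.04. The part that the control channel has in the value at 1276 was not tested.

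KRT8 and KRT18 thus stood about equally far apart between the lines, from different starting points: KRT8 was near control with miR-421 and KRT18 near control with miR-338-5p. Pearson's r over the 6 arrays was 0.948 between KRT8 at 1681 and KRT18 at 1276, and 0.955 between KRT8 at 1681 and at 644. The probe at 350 reached 0.603 with the probe at 1681. These values describe 6 arrays in 2 sets of 3, so they mostly carry the gap between the sets, and the arrays share their control label and dye.

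**Figure D2:**
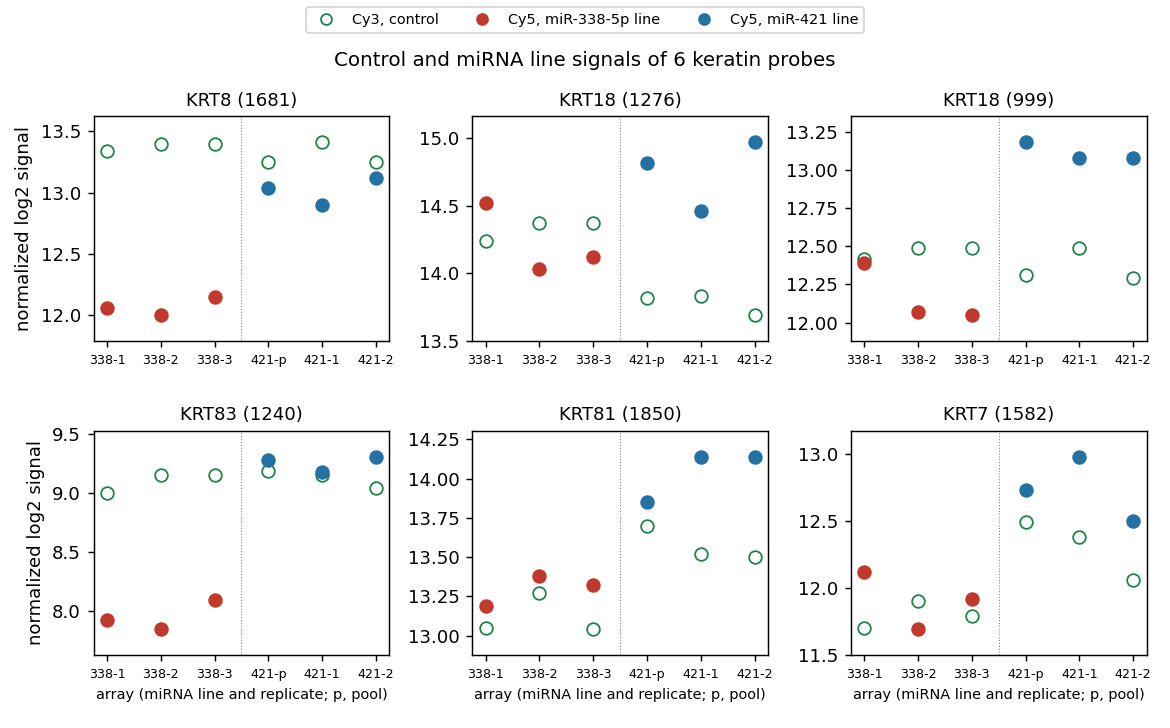
Normalized log2 signal of control (Cy3, open) and miRNA line (Cy5, filled) on each of the 6 arrays for 6 keratin probes; each panel has its own vertical range. Cy3 is level for KRT8 at 1681, KRT18 at 999 and KRT83 at 1240, and differs between the array sets for KRT18 at 1276 (by 0.54), KRT81 (by -0.45) and KRT7 (by -0.51).

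The human genome holds many processed copies of KRT8 and KRT18, and the array carries probes named after them. Such a probe can pick up the parent messenger RNA, so its reading is a possible cross-signal and not a measure of the pseudogene. Probes of the same parent may thus repeat a single reading, and counts over them are not counts of independent genes. Of 6 KRT8 pseudogene probes 5 were tested (KRT8P12, KRT8P15, KRT8P37, KRT8P44 and KRT8P48). With miR-338-5p 5 of 5 passed as lower (limma, 5.22% of all tested probes). With miR-421 0 of 5 passed (21.6% of all tested probes), and also 0 at an unadjusted limma p below 0.05. Their means ran from -1.43 to -1.12 with miR-338-5p (median -1.26) and from -0.12 to 0.04 with miR-421 (median -0.08). These ranges lie beside the KRT8 probes at 1681 and 644 and far from the one at 350.

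Of 16 KRT18 pseudogene probes 11 were tested. With miR-421, 11 of 11 passed as higher (9.19% of all tested probes). With miR-338-5p 2 of 11 passed as lower (5.22% of all tested probes), KRT18P26 and KRT18P65. The means ran from 0.31 to 0.86 with miR-421 (median 0.72) and from -0.46 to 0.02 with miR-338-5p (median -0.32), close to the KRT18 probe at 999. KRT18P59 had the value nearest 0 for either line, 0.02 and 0.31. The lines did not overlap at any of these 11 probes (19.8% of all probes). No tested member probe shared more than 63% of its bases with a pseudogene probe over an ungapped overlap of at least 25 bases. That compares probes only with each other, so it cannot show whether a pseudogene probe pairs with the parent messenger RNA.

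**Figure D3:**
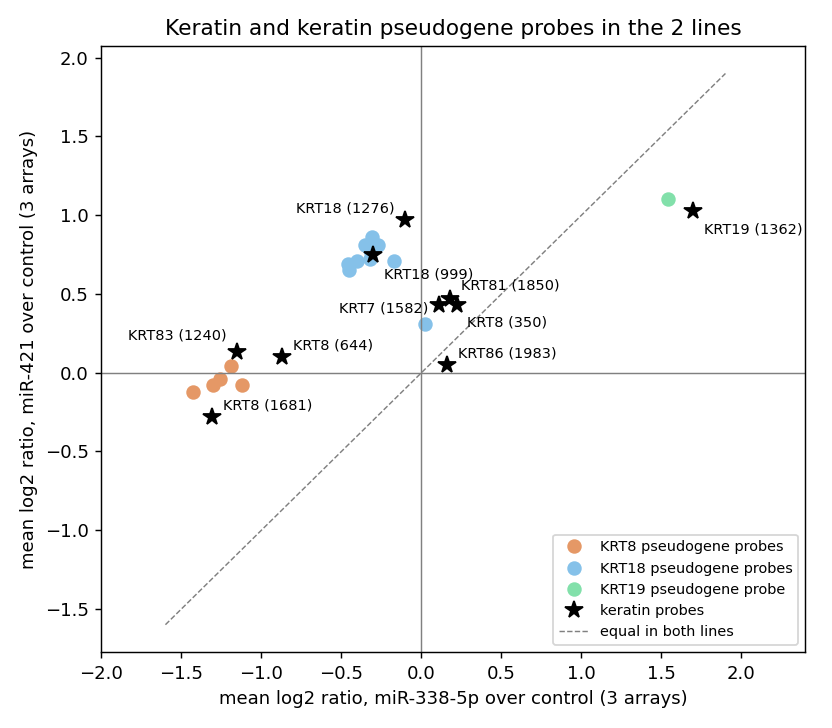
Mean log2 ratio over control with miR-338-5p (horizontal) and with miR-421 (vertical), 3 arrays each, for the tested keratin probes (stars, gene and start in the transcript) and keratin pseudogene probes (circles). The KRT8 pseudogene probes lie near KRT8 at 644 and 1681 and near KRT83 at 1240, and all KRT18 pseudogene probes but KRT18P59 lie near KRT18.

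Among the other simple keratins only KRT19 and KRT7 could be tested. KRT19, the type I chain that lacks most of the usual tail domain, read 1.56, 0.47 and 3.07 with miR-338-5p and 0.74 (pool), 0.71 and 1.64 with miR-421 (probe at 1362, chr17:39679918-39679977, minus strand). All 6 arrays were above control, and the lines overlapped. The means were 1.70 ± 1.31 (SD, n = 3), or 325% of control, and 1.03 ± 0.53 (SD, n = 3), or 204%. Neither passed (limma adjusted p = 0.079 and 0.17), and the spread between the miR-338-5p arrays was as wide as the mean. The Cy3 signal varied from 12.27 to 12.62, so the spread lay in the miRNA line channel. The probe for the pseudogene KRT19P2 gave 1.27, 0.63 and 2.72 with miR-338-5p and 0.92 (pool), 0.86 and 1.51 with miR-421, high and low on the same arrays.

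KRT7, a type II chain of ductal epithelia, read 0.42, -0.21 and 0.13 with miR-338-5p and 0.24 (pool), 0.60 and 0.44 with miR-421 (probe at 1582, chr12:52642590-52642649, plus strand). The lines overlapped. Neither mean passed, 0.11 ± 0.31 (SD, n = 3, limma adjusted p = 0.64) and 0.43 ± 0.18 (SD, n = 3, limma adjusted p = 0.062). The control signal was itself lower on the miR-338-5p arrays, by 0.51 on the log2 scale (11.80 against 12.31), and its part in these ratios was not tested. KRT20 and both KRT23 probes were well above background on 0 arrays in either dye. KRT80 was so on 2 arrays in Cy3 and 2 in Cy5, too few to be tested.

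The hair keratins split by probe. The KRT83 probe at 1240 gave -1.08, -1.31 and -1.05 with miR-338-5p and 0.09 (pool), 0.04 and 0.27 with miR-421. Every miR-338-5p array was below 0 and every miR-421 array above it. The means were -1.15 ± 0.14 and 0.13 ± 0.12 (SD, n = 3 each), or 45.2% and 110% of control, and the difference between the lines was -1.28. The miR-338-5p mean passed as lower than control under 15 of 15 alternatives run on this probe. Both settings with 1 value per gene also passed but add no other probe. The mean of the gene's kept probes was again -1.15. The authors' deposited table had -1.27, the same as this probe on the image software's ratio. The control signals of the array sets differed by -0.03 only, and the Cy5 signals by -1.30.

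The probe at 1240 does not stand for KRT83 alone. The array files list it against transcripts of 4 hair keratins, KRT83, KRT81, KRT86 and KRT85. The other probe named KRT83, at 884, is listed against KRT83 and KRT86 and was well above background on 0 arrays in either dye. Of the probes listed against a single one of these genes, the bright KRT81 probe did not follow the shared probe, and those of KRT86 and KRT85 were dim. KRT81 (probe at 1850, chr12:52679697-52679756, minus strand) read 0.14, 0.11 and 0.28 with miR-338-5p and 0.15 (pool), 0.62 and 0.64 with miR-421. No value was below 0 and the lines overlapped.

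The KRT81 means were 0.18 ± 0.09 (SD, n = 3, limma adjusted p = 0.35) and 0.47 ± 0.28 (SD, n = 3, limma adjusted p = 0.031). The second passed as higher, and missed the threshold under 8 of 17 alternatives, with adjusted p between 0.055 and 0.29; without miR-421 replicate 1 it was 0.11, without replicate 2 it was 0.14 and without miR-338-5p replicate 1 it was 0.055. The KRT81 control signal was lower by 0.45 on the miR-338-5p arrays (13.12 against 13.57), and its part in the result was not tested.

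KRT86 (probe at 1983, chr12:52702840-52702897, plus strand) read 0.32, -0.13 and 0.28 with miR-338-5p and -0.03 (pool), 0.21 and -0.02 with miR-421. The lines overlapped around control, and their means were 0.16 ± 0.25 (SD, n = 3, limma adjusted p = 0.40) and 0.05 ± 0.13 (SD, n = 3, limma adjusted p = 0.76). KRT85, the hair keratin outside the chosen genes on the shared probe's list, had means of -0.03 ± 0.10 (SD, n = 3, limma adjusted p = 0.88) and 0.19 ± 0.22 (SD, n = 3, limma adjusted p = 0.18). Both probes were dim, with normalized log2 Cy3 signals of 6.11 to 6.35 for KRT86 and 6.87 to 7.23 for KRT85. KRT5, well above background on 0 arrays, read 5.71 to 5.79. The KRT86 probe thus had too little room to show a fall as large as the shared probe's, and the KRT85 probe had little.

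The shared hair keratin probe had a profile close to that of KRT8. Over the 6 arrays Pearson's r was 0.989 with KRT8 at 1681, 0.983 with KRT8 at 644 and 0.963 with KRT18 at 999. It was 0.696 with KRT81 and -0.226 with the dim KRT86 probe. In sequence the member probes were unlike each other: of 105 pairs, 0 shared over 70% of bases in an ungapped overlap of at least 25 bases, and the highest share was 59.5%. Probes were compared only with each other, which cannot show whether a probe pairs with the messenger RNA of another keratin. Whether the probe at 1240 also pairs with KRT8 messenger RNA was not tested, as transcript sequences were not used here.

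Other genes with a like profile were sought among 1299 genes with an SD of at least 0.5 over the 6 arrays. For KRT8 the nearest were PNPLA7, CDCA7L, PPAP2C, PC and RHOH, with Pearson's r from 0.987 to 0.994. PC encodes pyruvate carboxylase and RHOH a small GTPase of blood cells. KRT18 was followed most closely by NES (nestin, another intermediate filament protein), SLC47A1, GDNF, PALLD and WDR70, with r from 0.981 to 0.993. For the shared hair keratin probe they were PC, ABCC11, PPAP2C, PNPLA7 and BAI2, with r from 0.987 to 0.996, and 3 of these 5 were also among the 5 named for KRT8. With 6 arrays in 2 sets such values are common: r was over 0.95 for 2.08% of the candidates with KRT8, 2.77% with KRT18 and 2.93% with the shared probe.

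Few other keratins passed. Of 14 other hair keratins on the array 5 were tested and 0 passed in either comparison (limma, and also 0 at an unadjusted p below 0.05), with median log2 ratios of 0 (miR-338-5p) and 0.08 (miR-421). Apart from KRT85, those tested had normalized log2 Cy3 signals of only 5.90 to 6.44, near background, so a fall could hardly show. One probe per gene was used for these lists, where the share of all genes that passed was 9.25% (miR-338-5p) and 22.7% (miR-421). The medians over all probes were 0 and 0. Of 31 keratins of stratified and other epithelia 10 were tested and 18 were well above background on 0 arrays. KRT10, a type I keratin of the upper epidermis, rose with miR-338-5p, where it read 1.56, 1.20 and 1.01 (mean 1.26 ± 0.28, SD, n = 3, limma adjusted p = 0.024). With miR-421 it read -0.11 (pool), 0.96 and 0.32, below all miR-338-5p values and short of the threshold (limma adjusted p = 0.23). KRT73, a keratin of the hair root sheath, was the only one of these 10 genes to pass with miR-421, at 0.25 ± 0.11 (SD, n = 3, limma adjusted p = 0.045). The other stratified keratins tested passed in neither comparison, and the list medians were 0.04 and 0.04. At an unadjusted limma p below 0.05, 2 of the 10 were higher and 0 lower with each miRNA.

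Few genes that anchor keratin filaments to desmosomes or to other structures passed. Of 15 on the array 11 were tested, and 0 passed with miR-338-5p, although 2 were higher and 2 lower at an unadjusted limma p below 0.05. PKP2 was below 0 on every miR-338-5p array, at -0.55, -0.58 and -0.77 (mean -0.64 ± 0.12, SD, n = 3, limma adjusted p = 0.074). With miR-421 1 passed, the linker EPPK1 (epiplakin), which fell to -0.48 ± 0.13 (SD, n = 3, limma adjusted p = 0.032). Desmoplakin, DSP, which ties keratins to the desmosome, had means of -0.05 ± 0.02 and -0.21 ± 0.43 (SD, n = 3 each). The list medians were -0.05 and -0.05.

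Of 15 genes for other intermediate filaments 11 were tested, with medians of -0.04 and 0.02. NES was the only one to pass with miR-338-5p, where it fell (-0.42, -0.89 and -0.91; mean -0.74 ± 0.28, SD, n = 3, limma adjusted p = 0.031). VIM, the mesenchymal filament vimentin, and the nuclear lamin LMNB2 fell with miR-421. VIM read -2.05 (pool), -2.08 and -2.67 there (mean -2.27 ± 0.35, SD, n = 3, limma adjusted p = 0.027). With miR-338-5p it read 0.02, 2.39 and -0.17, so 1 array was high, and its mean there was 0.75 ± 1.42 (SD, n = 3, limma adjusted p = 0.39). LMNB2 was at -0.38 ± 0.09 (SD, n = 3, limma adjusted p = 0.035) with miR-421 and at -0.40 ± 0.22 (SD, n = 3, limma adjusted p = 0.052) with miR-338-5p.

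Markers of other cells were looked at beside these values. Of 7 basal markers 4 were tested and ITGA6, a hemidesmosome integrin, fell with miR-421 (-0.40 ± 0.18, SD, n = 3, limma adjusted p = 0.040). ITGA6 was dim (normalized log2 Cy3 6.09 to 6.33) and well above background on only 3 arrays in Cy5, which limits the size of its fall. Of 8 stromal markers 6 were tested. With miR-421 LUM and ACTA2 passed as higher and VIM as lower. The control signals of LUM and ACTA2 were low, at 6.61 to 6.76 and 6.24 to 6.37 (normalized log2 Cy3). The collagens COL1A2 and COL3A1 were well above background on 0 arrays. The collagen COL1A1 was so on 6 arrays in either dye and passed in neither comparison (means 0.11 with miR-338-5p and 0.06 with miR-421). The summed normalized signal of the stromal list ran from 1150 to 5060 in the miR-338-5p channel, from 963 to 1790 in the miR-421 channel and from 1180 to 1360 in control. The highest sum came mostly from VIM on miR-338-5p replicate 2, with a log2 Cy5 signal of 12.03 against 9.61 and 9.45 on replicates 1 and 3. In bulk RNA, fewer cells of a type and less RNA per cell cannot be told apart, and the part of these markers in the keratin values was not tested.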

How the data were processed

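The authors read the scans with Feature Extraction 11.5.1.1, per the file headers. The deposited spot intensities (mean signal and median local background per dye) are not normalized. The deposited log10 ratios (Cy5 over Cy3) were background-subtracted and dye-normalized by that software, per the file headers, and the deposited series table holds log2 ratios per gene name, whose normalization is not given in the sources used here. Per the labels' protocols, total RNA was given a poly(A) tail and labelled from oligo-dT.

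Here intensities were corrected by normexp (offset 50) and loess. Outlier spots were left out and spots of a probe averaged. Probes with a signal well above background, Cy3 or Cy5, on 3 or more of the 6 arrays were kept (27503 of 58201). One limma fit (R 4.3.3, limma 3.58.1; 1 mean per line, eBayes, prior degrees of freedom 2.05) gave two-sided p-values, adjusted by Benjamini-Hochberg over all probes. The fit was tested on simulated data. Values on the log2 scale are miRNA line over control, n = 3 arrays per line, which limits their precision. Signals per dye were taken after loess and quantile normalization of the mean of both dyes between arrays (Aquantile).

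The keratin genes and gene lists were chosen with earlier results of these data known. Named were all member genes, each led by its probe of highest mean intensity, pseudogene probes, genes of each list past the threshold (at most 4 a list, by size) and the 5 most alike profiles of KRT8, KRT18 and KRT83. DSP, PKP2, KRT85 and KRT19P2 were added after their values were seen. Profiles were compared over genes with 1 probe each, a RefSeq messenger RNA accession and an SD of at least 0.5. Some results on marker genes and a probe sequence are not reported here. Gene names are the array's; accessions were named through RefSeq's GRCh38.p14 table (10 of 10 genes), or through the array's own pairing where the table lacks one. Alternatives covered background correction, normalization, source of the ratio, the filter, outlier spots, the variance model, arrays in the fit, probes per gene, each array left out and the replicate number as a block.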

Additional observations from a re-analysis of the deposited data

Results flagged for a closer look

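Probes whose log2 ratios had one sign on all arrays of one line and the opposite sign on all arrays of the other were singled out. KRT8 at 644 was below 0 on 3 of 3 miR-338-5p arrays and above 0 on 3 of 3 miR-421 arrays, with a difference of -0.96 between the means. KRT18 at 999 did the same with a difference of -1.04, and KRT83 at 1240, the probe listed against 4 hair keratins, with a difference of -1.28. The differences are not given a test here, since they were known when the genes were picked.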

How the results depend on the processing

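Of 27503 probes, 2476 passed with miR-338-5p and 5950 with miR-421. The miR-338-5p count was 1579 with the local background subtracted, 1284 with median centring, 1093 on the image software's ratio, 984 on the authors' deposited table (per gene), 1590 without the filter and 214 with the arrays of the line alone, and 400 to 3650 with an array left out. The miR-421 count was 3877 with median centring and 629 to 5506 with an array left out. Of the miR-338-5p calls 42% were higher than control, 18% with median centring, 54.5% with background subtraction, 54.2% on the image software's ratio and 55.8% on the authors' deposited table. The 4 keratin probes called for miR-421 became 1 on the authors' deposited table and 2 with a gene's probes averaged, where there is 1 value per gene, and 0 to 5 with an array left out; the count of 3 for miR-338-5p was 3 with any array left out and 2 in both settings with 1 value per gene. The KRT8 difference (-1.03) was -1.28 with median centring, -0.86 on the authors' deposited table and -0.74 with its probes averaged, both of which take in the probe at 350, and -1.14 to -0.96 with an array left out. The KRT83 difference (-1.28) was -1.49 with background subtraction, -1.50 on the image software's ratio and -1.50 on the authors' deposited table, and -1.33 to -1.20 with an array left out. Leaving out an array gave -1.26 to -0.92 for the KRT18 difference (-1.07). Except where a cause is named, the cause was not tested. No keratin value changed direction past the threshold under the alternatives run. KRT7 with miR-421 passed under median centring (0.58, limma adjusted p = 0.026) and without miR-338-5p replicate 2 (limma adjusted p = 0.040); over all alternatives its adjusted p was 0.026 to 0.21. The lines share the replicate numbers 1 and 2 alone, and the labels do not say that these mark a shared culture. With the replicate number as a block over those 4 arrays the differences were -1.02 (KRT8), -0.98 (KRT18) and -1.35 (KRT83), and deviations from the line means correlated at -0.141 and -0.212 between same-numbered arrays. Signal over background limits KRT20, KRT23, KRT80 and the KRT83 probe at 884, of which no level is given. Low signal also limits KRT86, the other hair keratins tested, ITGA6 and ACTA2.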

Other observations

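The authors' deposited table gives KRT8 as 1 row, with log2 ratios of -0.56, -0.78 and -0.69 for miR-338-5p (authors' values, mean -0.68) and 0.13, 0.20 and 0.20 for miR-421 (mean 0.18). On the image software's ratio the plain mean of the 3 KRT8 probes came to -0.68 and 0.18 and lay within 0.00398 of that row on every array. The row therefore includes the probe at 350 with equal weight. For KRT83 the authors' deposited table has a mean of -1.27 with miR-338-5p, while the mean of both KRT83 probes on the image software's ratio was -0.73, so that row is not the mean of both probes.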
